A study of Mus musculus with 20 samples.

Results

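The pan-sensory identity transcription factors followed here were Isl1, Isl2, Pou4f1, Pou4f2, Pou4f3, Tlx3, Drgx (also called Prrxl1), Prdm12, Klf7 and Neurod1. They were chosen by name, as transcription factors that specify and maintain sensory neurons as a whole, and each symbol was matched to 1 Ensembl gene of the expression table. All 10 had a value in at least 1 of 20 libraries, as did 29049 of the 37620 genes of the table. Of the 10, 8 were among the 14529 genes with a mean log2 value of at least 0, which is 1 RPKM, in at least 1 group, and were tested, while Tlx3 and Neurod1 stayed below that limit.

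RNA-seq was performed on whole dorsal root ganglia (DRG) of C57Bl6 mouse embryos at E18.5, with no transgene or treatment in any group. Each of 5 male and 5 female donors gave 1 lumbar library from DRG L4 and L5 and 1 sacral library from DRG L6 and S1, the level at which neurons of the pelvic organs are concentrated. The comparison of the 2 levels is therefore paired by donor, and the libraries fall into 4 groups of 5 by level and sex. RPKM is the number of reads scaled to the length of the gene and the size of the library, which allows levels to be compared between genes, and differences are given on the log2 scale. The libraries were made from whole ganglia, so fewer neurons and less RNA of a gene per neuron cannot be told apart.

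These factors act in sequence and in combination. Neurogenic basic helix-loop-helix factors, of which Neurod1 is a downstream member, drive precursors of the neural crest out of division. The LIM homeodomain factor Isl1 and the POU homeodomain factor Pou4f1 (Brn3a) are then switched on in nearly all newborn sensory neurons, close the neurogenic programme and open that of the sensory subtypes. Pou4f2 (Brn3b), Pou4f3 (Brn3c) and Isl2 are their paralogs. The homeodomain factors Drgx and Tlx3 are needed for the relay neurons of the dorsal horn and for nociceptive neurons, Prdm12 is needed for the nociceptor lineage, and Klf7 is needed for the survival of nociceptive neurons.

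The libraries held 19606265 to 39678967 reads as recovered from the RPKM values, and the 2 mitochondrial ribosomal RNA genes took 17.8% to 61.1% of them. Neuronal marker genes were abundant in each library, with a summed level of 734 to 3951 RPKM over 13 pan-neuronal genes, which fits the label of the tissue. Defining genes of autonomic neurons were near 0, with a summed level of at most 1.36 RPKM over 7 genes in any library. Both libraries of male donor M5 and both of female donor F7 stood apart, with mitochondrial rRNA shares of 44.7% to 61.1% and limma library weights of 0.29 to 0.47, which are lower for more variable libraries. The lumbar library of F8 was like them, with a share of 43.2% and a weight of 0.43, and the other libraries had weights of 0.63 to 2.59. Results are therefore also given without donors M5 and F7, an alternative chosen after the data were seen. The labels number the male and female libraries in separate series, so sex and library series cannot be told apart.

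The 10 factors differed widely in level. Klf7 had the highest mean, at 67.4 RPKM (log2 6.07 ± 0.37, SD, n = 20), followed by Prdm12 at 59.5 RPKM (5.90 ± 0.47). Klf7 stood at percentile 98 and Prdm12 at percentile 97.7 of the mean levels of all genes tested. Pou4f1 followed at 21.9 RPKM (4.45 ± 0.46), Isl1 at 17.1 RPKM (4.09 ± 0.34) and Drgx at 14.8 RPKM (3.89 ± 0.50). Pou4f3 at 11.4 RPKM (3.51 ± 0.56), Pou4f2 at 11.2 RPKM (3.49 ± 0.50) and Isl2 at 7.81 RPKM (2.97 ± 0.54) formed the lower end of the factors tested. Tlx3, at 0.675 RPKM (-0.57 ± 0.54), and Neurod1, at 0.406 RPKM (-1.30 ± 0.80), were far below the others. The order rests on the gene lengths behind the deposited values: with the GENCODE M1 lengths Pou4f1 would be at 31.2 RPKM, Isl1 at 26.7 RPKM and Pou4f3 at 23.5 RPKM, which puts Pou4f3 above Drgx.

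Within a library most neighbours in this order kept their place. Prdm12 was above Pou4f1 in 20 of 20 libraries, by 1.44 ± 0.19 (SD), Pou4f2 was above Isl2 in 20 of 20, by 0.52 ± 0.34, and Klf7 was above Prdm12 in 18 of 20, by 0.18 ± 0.16. Pou4f3 and Pou4f2 did not differ beyond their spread, with a mean log2 ratio of 0.027 ± 0.42 and Pou4f3 the higher of the pair in 10 of 20 libraries. Isl1 was above Drgx in 16 of 20 libraries, by 0.20 ± 0.23, a difference smaller than its spread. These gaps also rest on the gene lengths behind the deposited values. With the GENCODE M1 lengths the mean log2 levels were 4.74 for Isl1 and 3.89 for Drgx, and 4.56 for Pou4f3 and 3.48 for Pou4f2. The range of values of Isl2 lay wholly above that of Tlx3, and the ranges of all other neighbours overlapped.

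**Figure D1:**
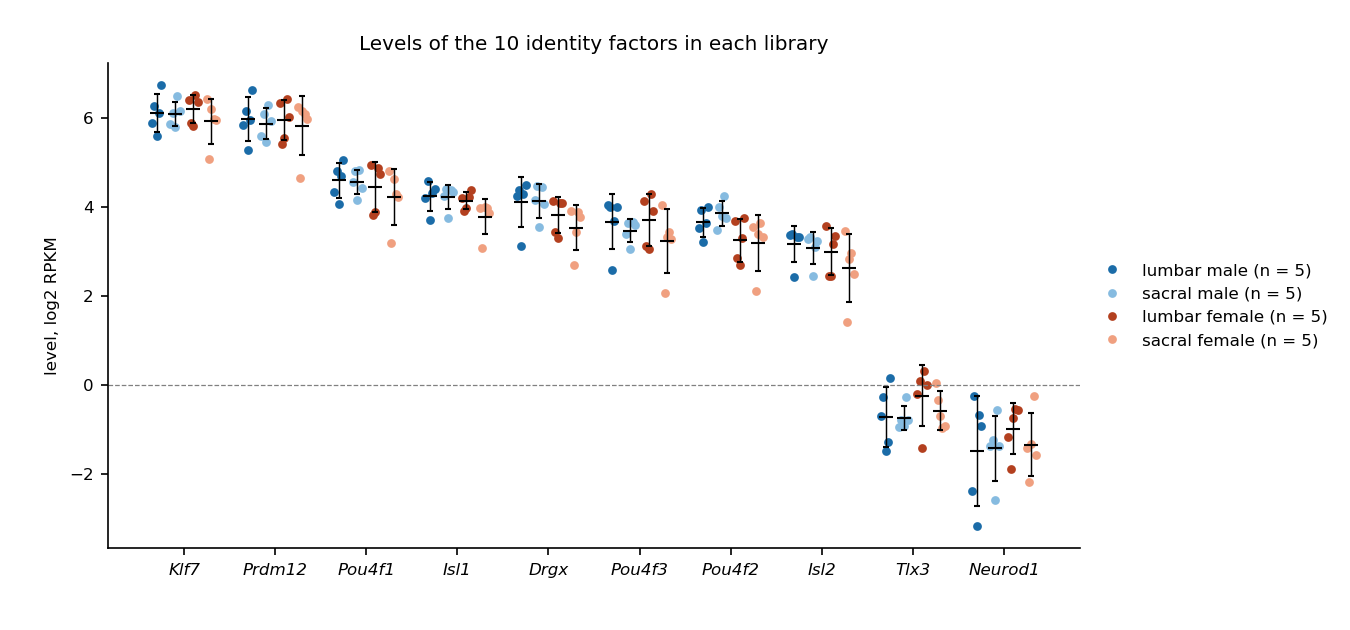
Level of each identity factor (log2 RPKM, vertical axis) in each of the 20 libraries, with 1 point per library, coloured by level and sex, and the group mean ± SD in black (n = 5 per group). Klf7 and Prdm12 sit near log2 6, Tlx3 and Neurod1 sit below or near the dashed line at 1 RPKM, and the lumbar and sacral points overlap for all 10 genes.

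The main question of the design was which genes differ between the lumbar and the sacral level. None of the 8 identity factors tested passed the threshold (limma, adjusted p from 0.263 to 0.802), and none had an unadjusted p under 0.05, as 24.1% of all genes had. With voom weights on the recovered reads the count was 0 as well. Over all genes 6.73% passed, 2.7% higher and 4.03% lower in sacral DRG. The differences of the 8 factors ran from -0.33 to 0.07 with a median of -0.14, and 7 of 8 were below 0, beside a median of -0.048 and 58.0% below 0 over all genes tested.

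The direction depended on the scaling. When each library was centred on its median over the pan-neuronal genes, the median difference of all genes moved by 0.44, from -0.048 to 0.395, and that of the 8 factors from -0.14 to 0.303. The gap between the factors and the middle of all genes, a small one, is kept by the centring, which moves all genes of a library alike. Centred in this way, 7 of the 8 factors passed the threshold as higher in sacral DRG, Pou4f3 being the exception, but so did a large part of all genes: 47.0% passed, with 98.8% of the calls higher in sacral DRG against 40.1% as deposited.

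Isl1, the LIM homeodomain factor shared by nearly all sensory neurons, was measured with the smallest error of the set. In lumbar DRG it was at 18.3, 23.9, 13.1, 19.8 and 21.0 RPKM in male donors M1, M3, M5, M7 and M8 and at 18.46, 14.99, 15.7, 18.6 and 20.6 RPKM in female donors F3, F7, F8, F9 and F10. In sacral DRG the same donors gave 18.8, 21.2, 13.4, 20.8 and 20.2 RPKM and then 15.7, 8.45, 16.04, 15.8 and 14.5 RPKM. The males kept nearly the same level at both sites, the sacral library of F7 was the lowest of all 20, and the ranges of the levels overlapped. The difference was -0.19 ± 0.10 (SE; 95% interval -0.40 to 0.027; adjusted p = 0.268), so a level in sacral DRG below 0.756 times that in lumbar DRG lay outside the interval. Without M5 and F7 it was -0.14 (adjusted p = 0.369).

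Isl2, its paralog, ranged from 5.40 to 11.9 RPKM in lumbar and from 2.65 to 10.95 RPKM in sacral DRG. It was lower in sacral DRG in 8 of 10 donors, but 4 of the 5 male differences lay between -0.23 and -0.053 and the largest, -1.03, came from F7. The mean difference of -0.23 ± 0.17 did not pass the threshold (adjusted p = 0.417). A further gene identifier without a symbol, ENSMUSG00000093430, kept the same ratio to Isl2 in all 20 libraries (log2 ratio 0.041), so the same reads appear to have been counted for both and the value of Isl2 is not independent of it.

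Pou4f1, the main POU4 factor of sensory neurons, ranged from 14.1 to 32.99 RPKM in lumbar and from 9.13 to 28.2 RPKM in sacral DRG. It was lower in sacral DRG in 5 of 10 donors and higher in the other 5, from -0.62 in F7 to 0.76 in F8. The mean difference of -0.13 ± 0.16 (95% interval -0.45 to 0.20) did not pass the threshold (adjusted p = 0.645).

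Pou4f3, a paralog known also as the POU4 factor of hair cells, showed the largest difference of the set, at -0.33 ± 0.18 (95% interval -0.70 to 0.042; adjusted p = 0.263). In lumbar DRG it was at 16.5, 15.96, 6.03, 12.8 and 15.9 RPKM in M1, M3, M5, M7 and M8 and at 17.6, 8.68, 8.29, 19.5 and 14.9 RPKM in F3, F7, F8, F9 and F10. In sacral DRG it was at 10.51, 12.4, 8.25, 12.7 and 12.02 RPKM in the males and at 16.4, 4.21, 10.03, 10.8 and 9.69 RPKM in the females. It was lower in sacral DRG in 8 of 10 donors, with M5 and F8 the exceptions, and the ranges overlapped. Pou4f3 was the only factor to pass under down-weighting of variable libraries (limma library weights, -0.43, adjusted p = 0.0194), a setting in which 20.6% of all genes passed, and without M5 and F7 the difference was -0.34 (adjusted p = 0.245).

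Pou4f2, better known as the POU4 factor of retinal ganglion cells, was the 1 factor with a difference above 0 as deposited. It was at 11.5, 15.2, 9.20, 12.4 and 15.9 RPKM in lumbar DRG of the 5 males, in the order above, and at 12.9, 7.16, 6.43, 9.82 and 13.4 RPKM in the females. In sacral DRG it was at 11.1, 15.9, 13.8, 19.0 and 13.5 RPKM in the males and at 11.6, 4.29, 10.4, 12.4 and 9.96 RPKM in the females. In sacral DRG 5 donors were higher and 5 lower, and the mean of 0.070 ± 0.15 (adjusted p = 0.802) changed sign, to -0.024, without F8.

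Drgx, the paired-like homeodomain factor of DRG and dorsal horn, ranged from 8.68 to 22.4 RPKM in lumbar and from 6.43 to 22.0 RPKM in sacral DRG. Its difference was -0.12 ± 0.15 (adjusted p = 0.621), with a mean of 0.027 ± 0.32 (SD, n = 5) in males and -0.28 ± 0.31 in females. Tlx3, the other homeodomain factor of this pathway, had 9 to 67 reads per library and ranged from 0.359 to 1.253 RPKM in lumbar and 0.513 to 1.04 RPKM in sacral DRG. It was lower in sacral DRG in 6 of 10 donors, with a mean within-donor difference of -0.18 ± 0.78 (SD, n = 10; exact permutation test flipping the signs of donors, two-sided, p = 0.482).

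Prdm12, the zinc-finger factor of the nociceptor lineage, ranged from 38.4 to 98 RPKM in lumbar and from 24.95 to 78.0 RPKM in sacral DRG. The difference was -0.11 ± 0.16 (95% interval -0.45 to 0.23; adjusted p = 0.709), with 7 of 10 donors lower in sacral DRG. Klf7, a Krüppel-like factor of sensory neurons, ranged from 48.3 to 106.1 RPKM in lumbar and from 33.8 to 89.4 RPKM in sacral DRG, and its difference was -0.15 ± 0.13 (adjusted p = 0.499). Neurod1 had 5 to 69 reads per library and ranged from 0.112 to 0.844 RPKM in lumbar and 0.166 to 0.850 RPKM in sacral DRG. Its mean within-donor difference was -0.15 ± 0.66 (SD, n = 10; exact permutation test flipping the signs of donors, two-sided, p = 0.477; adjusted over it and Tlx3, p = 0.482).

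The means moved with single donors. Without M5 and F7 the difference was -0.16 for Isl2, -0.09 for Pou4f1, 0.11 for Pou4f2, -0.12 for Drgx, -0.064 for Prdm12 and -0.12 for Klf7 (limma, adjusted p from 0.585 to 0.845). With 1 donor left out it ran from -0.25 (without F8) to -0.054 (without M8) for Pou4f1, from -0.20 (without F8) to -0.029 (without F7) for Prdm12 and from -0.23 (without F8) to -0.085 (without M8) for Klf7. For Drgx it ran from -0.17 (without F8 or M5) to -0.065 (without F7), and none of these values passed.

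**Figure D2:**
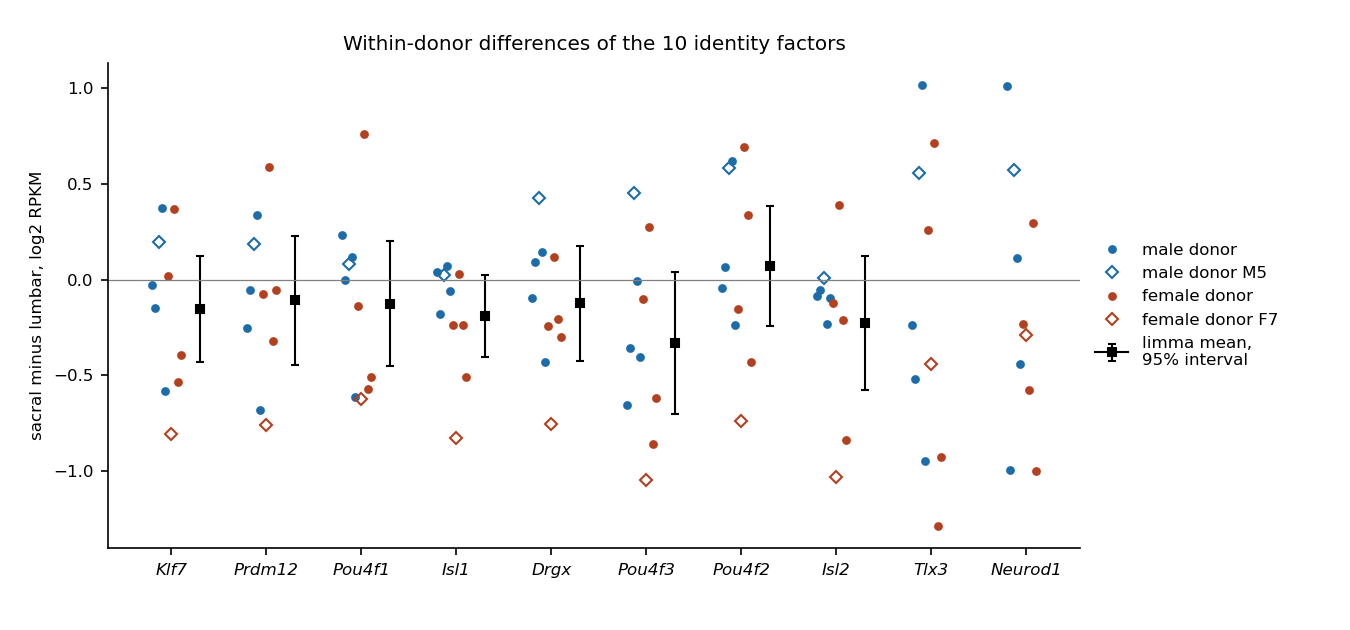
Sacral minus lumbar difference of each identity factor in each donor (log2 RPKM, vertical axis), with males in blue, females in red, open diamonds for M5 and F7, and the limma mean with its 95% interval in black for the 8 genes tested. Each interval includes 0 as deposited, and F7 is the lowest donor for all 8 genes tested; centred on the pan-neuronal genes, 7 of these 8 means passed the threshold above 0.

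The genes lie on 8 chromosomes of mm9 (annotation GENCODE M1, all protein coding). Isl1 (ENSMUSG00000042258) is at chr13:117088478-117099896, Isl2 (ENSMUSG00000032318) at chr9:55386479-55393987, Pou4f1 (ENSMUSG00000048349) at chr14:104862737-104867216, Pou4f2 (ENSMUSG00000031688) at chr8:80956908-80960551 and Pou4f3 (ENSMUSG00000024497) at chr18:42554251-42555747. Drgx (ENSMUSG00000041730) is at chr14:33412594-33462432, Prdm12 (ENSMUSG00000079466) at chr2:31495557-31511315, Klf7 (ENSMUSG00000025959) at chr1:64076021-64168856, Tlx3 (ENSMUSG00000040610) at chr11:33100752-33103588 and Neurod1 (ENSMUSG00000034701) at chr2:79292678-79296908. Other genes overlap some of them, and the sources used here do not state whether reads were counted by strand. Of the exon bases of Klf7, 39.4% are shared with the opposite-strand genes Gm17427 and Gm13748, of those of Prdm12 8.1% with Gm13425, and of those of Neurod1 13% with Cerkl and Gm17325. Reads from these stretches cannot be assigned to 1 gene.

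The 3 POU4 genes were next compared with each other within a library, which removes the scaling of the library. These ratios were chosen after the values were seen. The lengths that give whole reads for Isl1 and the 3 POU4 genes differ from those of GENCODE M1, which bears on which gene of a pair is the higher but not on the difference of a ratio between lumbar and sacral DRG. The log2 ratio of Pou4f3 to Pou4f2 in lumbar and then sacral DRG was 0.23 ± 0.42 and -0.17 ± 0.34 (SD, n = 10 each). With the GENCODE M1 lengths these means were 1.27 and 0.87, so the order of the pair is uncertain. The ratio was lower in sacral DRG in 9 of 10 donors, F3 being the exception, with a mean difference of -0.40 ± 0.35 (SD, n = 10; exact permutation test flipping the signs of donors, two-sided, p = 0.00391). This pair joins the lowest and the highest level difference of the 8 factors, and over the ratios of all 28 pairs none passed after adjustment (adjusted p = 0.109 for this pair, the smallest). The mean difference was -0.39 in males and -0.41 in females. Without M5 and F7 it was -0.45 (unadjusted exact permutation p = 0.0156).

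As shares of the summed RPKM of the family, Pou4f3 made up 27.6% ± 4.4 (SD, n = 10) in lumbar and 23.9% ± 2.6 in sacral DRG, and Pou4f2 made up 23.5% ± 3.1 and 27.1% ± 4.2. Pou4f1 made up 48.9% ± 3.0 and 49.0% ± 3.3. With the GENCODE M1 lengths the shares in lumbar DRG were 46.4% for Pou4f1, 15.7% for Pou4f2 and 37.9% for Pou4f3, and those in sacral DRG 47.8%, 18.6% and 33.6%. The ratios of either paralog to Pou4f1 did not pass: that of Pou4f3 differed by -0.21 ± 0.36 (SD, n = 10; unadjusted exact permutation p = 0.109) and that of Pou4f2 by 0.20 ± 0.36 (unadjusted exact permutation p = 0.115). For the LIM pair, the ratio of Isl2 to Isl1 differed by -0.038 ± 0.21 (SD, n = 10; unadjusted exact permutation p = 0.576), and Isl1 made up 68.2% ± 4.1 of their sum in lumbar and 68.7% ± 4.5 in sacral DRG, or 77.0% and 77.4% with the GENCODE M1 lengths.

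**Figure D3:**
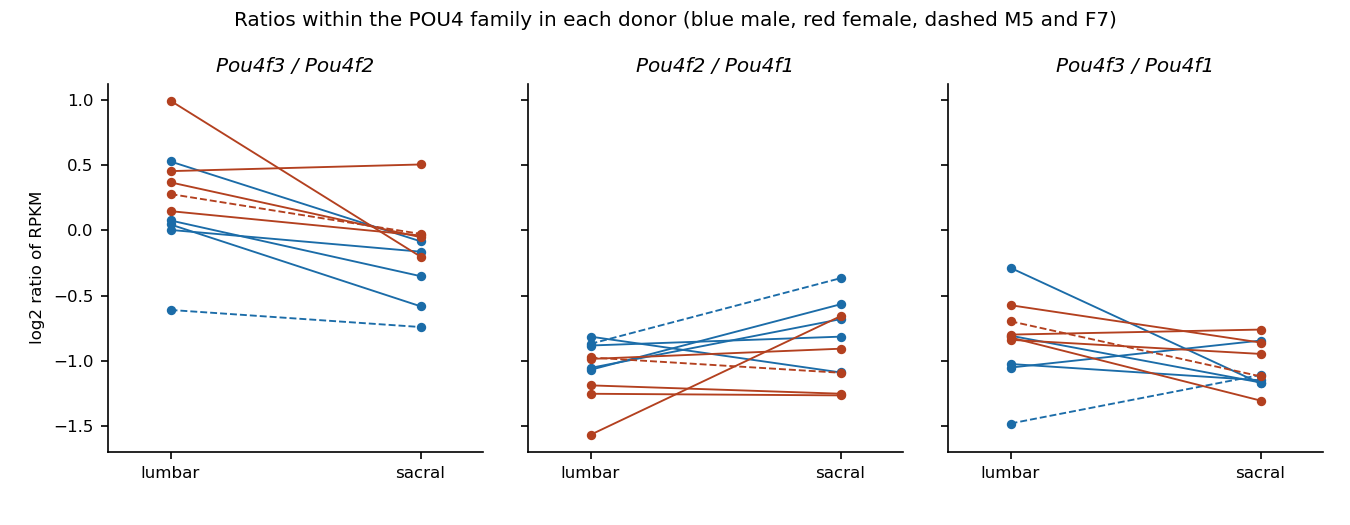
Log2 ratio of RPKM between 2 POU4 genes (vertical axis) in the lumbar and the sacral library of each donor, joined by a line, with males in blue, females in red and dashed lines for M5 and F7. In the left panel 9 of 10 lines run downwards from lumbar to sacral DRG, while the lines of the other panels run both ways.

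Sex was the other factor of the design. In lumbar DRG none of the 8 factors differed between females and males (limma, adjusted p from 0.74 to 0.994), and none had an unadjusted p under 0.05; 0.33% of all genes passed. In sacral DRG none passed either (adjusted p from 0.241 to 0.943), beside 1.01% of all genes, but 3 had an unadjusted p under 0.05, as had 15.5% of all genes, and all 8 differences were below 0 as deposited, from -0.66 to -0.051, as were 53.9% of those of all genes. When centred on the pan-neuronal genes, 6 of 8 were below 0. With voom weights both counts were 0.

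The 3 were Pou4f2 at -0.66 ± 0.26 (SE; adjusted p = 0.241), Drgx at -0.60 ± 0.25 (adjusted p = 0.269) and Isl1 at -0.44 ± 0.18 (adjusted p = 0.254), each as females minus males. Sacral Isl1 was lowest in F7, at 8.45 RPKM, while the other 4 females lay between 14.5 and 16.04 RPKM and the males other than M5 between 18.8 and 21.2 RPKM. Without F7, 5 of 8 differences remained below 0 and the smallest adjusted p was 0.518, while without M5 all 8 did and the smallest was 0.0657. The interaction of level and sex asks whether the level difference in females was unlike that in males. As deposited it was below 0 for all 8, from -0.34 to -0.031, and for 61.1% of all genes. When centred on the pan-neuronal genes it was above 0 for all 8. No factor passed (adjusted p = 0.995 for each), and 0.0% of all genes did, although 470 genes had an unadjusted p under 0.05.

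The within-donor differences of the factors moved together. Over the 10 donors, the Pearson r between 2 factors ran from 0.576 to 0.914 over the 28 pairs, with a median of 0.774. This is a description over libraries that share their scaling. No such value for all genes is given beside it, so it is not read as particular to these factors. The sacral library of F7 was the lowest of the 20 for all 8 factors tested.

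Levels also moved with the mitochondrial rRNA share. In lumbar DRG, 3 libraries (M5, F7 and F8) had shares of 43.2% to 61.1% and the other 7 had 20.5% to 30.4%. For 7 of the 8 factors the 3 libraries all lay below the 7, as they did for 21.6% of all genes, and the means differed by -1.08 for Pou4f3 to -0.46 for Isl1. Within the 7 libraries no relation with the share passed (Pearson r from -0.826 to -0.018 and Spearman rho from -0.786 to 0.107, n = 7, exact permutation tests, adjusted over 16 relations). In sacral DRG, where the shares were spread from 17.8% to 49.5% with no such gap, r ran from -0.77 to -0.40 and rho from -0.939 to -0.285 (n = 10, permutation tests). Of these, rho passed after adjustment for 3 of the 8 factors and r for 0, where 8.44% of all genes had a rho at or below the highest of the 3 (-0.83), and without the 2 libraries farthest from the median share r ran from -0.735 to -0.387. With the share as a covariate, no factor passed for the level.

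**Figure D4:**
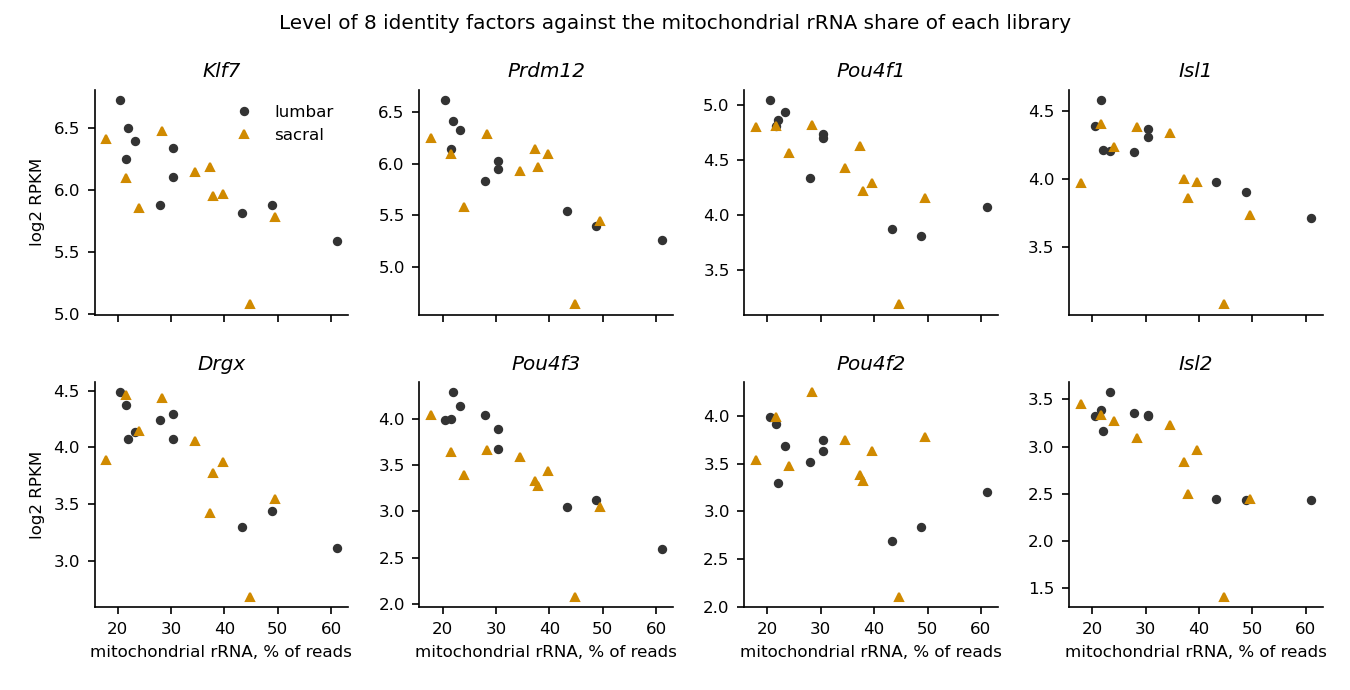
Level of the 8 identity factors tested (log2 RPKM, vertical axis) against the share of reads from the 2 mitochondrial rRNA genes (%, horizontal axis), with lumbar libraries as circles and sacral libraries as triangles. The 3 lumbar libraries at 43.2% or more lie low in each panel, and the sacral library of F7, at 44.7%, is the lowest point of each.

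For each tested factor, the genes whose 10 within-donor differences were most alike were found by Pearson r over the 14529 genes. For Klf7 they were Kif3a (r = 0.992), a kinesin of axonal transport, and Dpysl5 (0.991), a protein of growing axons. The pairs for Pou4f1 were Eml1 and Syt2 (0.978 each), for Pou4f2 Dgki (0.966) and Sec62 (0.958), and for Pou4f3 Asb8 (0.984) and D430036J16Rik (0.976). For Drgx they were Gm10475 (0.987) and Eepd1 (0.975), for Prdm12 Usp32 (0.971) and Paqr4 (0.963), for Isl1 Gm14881 (0.965) and Mmp17 (0.945), and for Isl2, after the identifier that shares its reads, Ciapin1 (0.946). None of these genes passed the threshold for the level difference. Their r values are the highest of a search over 14529 genes with 10 differences each, a description that was not tested.

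The promoters of the factors were examined for shared letters. The 300 bases from 250 before to 50 after the start, as RefSeq gives them for GRCm38.p6, were used for 8 of the 10 genes. Pou4f3 and Drgx were left out, and the 8 include Tlx3 and Neurod1, which were not among the factors tested with limma. The GC box, GGGCGG on either strand, was found in 7 of these 8 and in 35.7% of 32851 promoters of the same length. The TATA box TATAAA was found in 0 of 8 (13.6% of all promoters), the homeodomain core TAATTA in 0 of 8 (5.3%) and the E-box CAGCTG in 2 of 8, Isl1 and Pou4f1 (16.3%). The GC content of the 8 ran from 51.7% to 78.3%, beside a median of 52.7% over all promoters. A match is a description of the letters and not a site of binding, and its bearing on how the factors moved was not tested. Of these promoters, 3 are shown to span the number of GC boxes found: Isl1 with 0, Pou4f1 with 2 that overlap and Pou4f2 with 5. All are on the minus strand and printed 5′ to 3′ in the direction of the gene with the GC boxes in capitals. Their coordinates belong to GRCm38.p6 and not to the build of the genes above.
Isl1, chr13:116309639-116309938: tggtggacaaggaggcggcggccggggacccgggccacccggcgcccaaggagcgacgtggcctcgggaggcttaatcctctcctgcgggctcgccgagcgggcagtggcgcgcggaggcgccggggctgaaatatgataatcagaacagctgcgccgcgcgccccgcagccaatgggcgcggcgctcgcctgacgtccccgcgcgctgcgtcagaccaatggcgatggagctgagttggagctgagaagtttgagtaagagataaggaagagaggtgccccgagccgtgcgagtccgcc
Pou4f1, chr14:104467950-104468249: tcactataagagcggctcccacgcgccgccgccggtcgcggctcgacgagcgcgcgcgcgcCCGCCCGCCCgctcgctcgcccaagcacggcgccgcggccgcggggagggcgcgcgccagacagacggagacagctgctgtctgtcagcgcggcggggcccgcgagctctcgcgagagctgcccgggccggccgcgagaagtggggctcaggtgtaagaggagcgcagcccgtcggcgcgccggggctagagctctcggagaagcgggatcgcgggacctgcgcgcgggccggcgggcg
Pou4f2, chr8:78436598-78436897: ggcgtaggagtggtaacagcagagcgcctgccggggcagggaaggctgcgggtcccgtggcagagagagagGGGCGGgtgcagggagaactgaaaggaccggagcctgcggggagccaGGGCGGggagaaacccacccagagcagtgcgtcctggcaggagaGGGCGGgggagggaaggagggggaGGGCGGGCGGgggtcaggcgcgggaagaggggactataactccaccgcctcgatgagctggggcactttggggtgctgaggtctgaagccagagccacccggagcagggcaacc

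Other genes of the same pathway were read from fixed lists. Of the sensory neurogenesis and differentiation factors, 18 were listed and 10 were tested, through 11 identifiers because Ebf1 has 2. None passed the threshold with limma or with voom weights, and 3 had an unadjusted p under 0.05 beside 24.1% of all genes. Their median difference was 0.044, and 2 of 11 lay below 0, beside 58.0% of all genes. The largest differences were those of Eya1, a transcriptional cofactor of ganglion development (0.65 ± 0.20, adjusted p = 0.0596), Lmo4, a LIM-only protein (0.28 ± 0.13, adjusted p = 0.184), and Ldb1, the LIM-domain binding partner of Isl1 (0.21 ± 0.075, adjusted p = 0.0965). The neurogenins Neurog1 and Neurog2, which act in early precursors, were at 0 in lumbar DRG and reached at most 0.0474 RPKM in a sacral library.

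Of 12 genes linked to the identity factors, none passed with limma or with voom weights and 2 had an unadjusted p under 0.05 beside 24.1% of all genes. Their median difference was -0.24, and 10 of 12 lay below 0 as deposited, beside 58.0% of all genes. Among the largest were the sensory neuron actin-binding protein Avil (-0.40 ± 0.18, adjusted p = 0.183) and Runx3, a factor of proprioceptive neurons (-0.36 ± 0.19, adjusted p = 0.265).

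Some markers of the cell types in the ganglion passed for the level as deposited. Over all genes tested, 58.0% lay below 0 and 4.03% were called lower in sacral DRG. All 13 pan-neuronal genes tested lay below 0 as deposited, with a median of -0.36, and 4 were lower in sacral DRG: the neurofilament genes Nefm (-1.14 ± 0.21, adjusted p = 0.00381) and Nefl (-0.90 ± 0.18, adjusted p = 0.00687), Thy1 (-0.76, adjusted p = 0.0281) and the synaptic Snap25 (-0.60, adjusted p = 0.0162). All 11 genes of Schwann cells and satellite glia tested lay below 0 as deposited, with a median of -0.34, and 5 were lower, among them Egr2 (-1.10), S100b (-0.67), Mbp (-0.58) and Fabp7 (-0.40), with adjusted p from 0.000196 to 0.0383. Egr2 had means below the limit of the test at both levels, 0.944 RPKM in lumbar and 0.441 RPKM in sacral DRG. It was tested through a group in which it was higher, so its direction is not independent of that limit.

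All 9 genes of fibroblasts, meninges and cartilage tested lay above 0, with a median of 0.51, and 4 were higher in sacral DRG: Col2a1 (0.81), Col1a1 (0.72), Pdgfra (0.62) and Col1a2 (0.51), with adjusted p from 0.00554 to 0.0333. Over all genes, 2.7% were called higher and 58.0% lay below 0. Sox9 (0.690 RPKM in lumbar and 0.904 RPKM in sacral DRG) and Acan had means below 1 RPKM at both levels. They were tested through a group in which they were higher, so their direction is not independent of that limit. The largest difference of this list, 1.36 for the cartilage gene Acan at 0.243 RPKM in lumbar and 0.626 RPKM in sacral DRG, did not pass (adjusted p = 0.0745). Of the spinal cord neuron list 1 of 12 genes was tested, the choline transporter gene Slc5a7, which was higher in sacral DRG (1.05 ± 0.18, adjusted p = 0.00213; higher in 10 of 10 donors). The summed level of that list was 1.33 to 3.30 RPKM in lumbar and 2.24 to 5.56 RPKM in sacral DRG. That sum includes Slc5a7 itself, with means of 1.24 and 2.57 RPKM, and the other 11 genes stayed below the limit of the test. When centred on the pan-neuronal genes, 4 of the pan-neuronal genes were higher and 3 lower, 0 of the glial genes were called and all 9 genes of the fibroblast list were higher. In that setting 46.4% of all genes were called higher and 0.6% lower. Without M5 and F7, 4 pan-neuronal, 2 glial and 1 fibroblast gene passed as deposited, beside 1.8% of all genes. The part of these cell types in the differences of the identity factors was not tested.

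**Figure D5:**
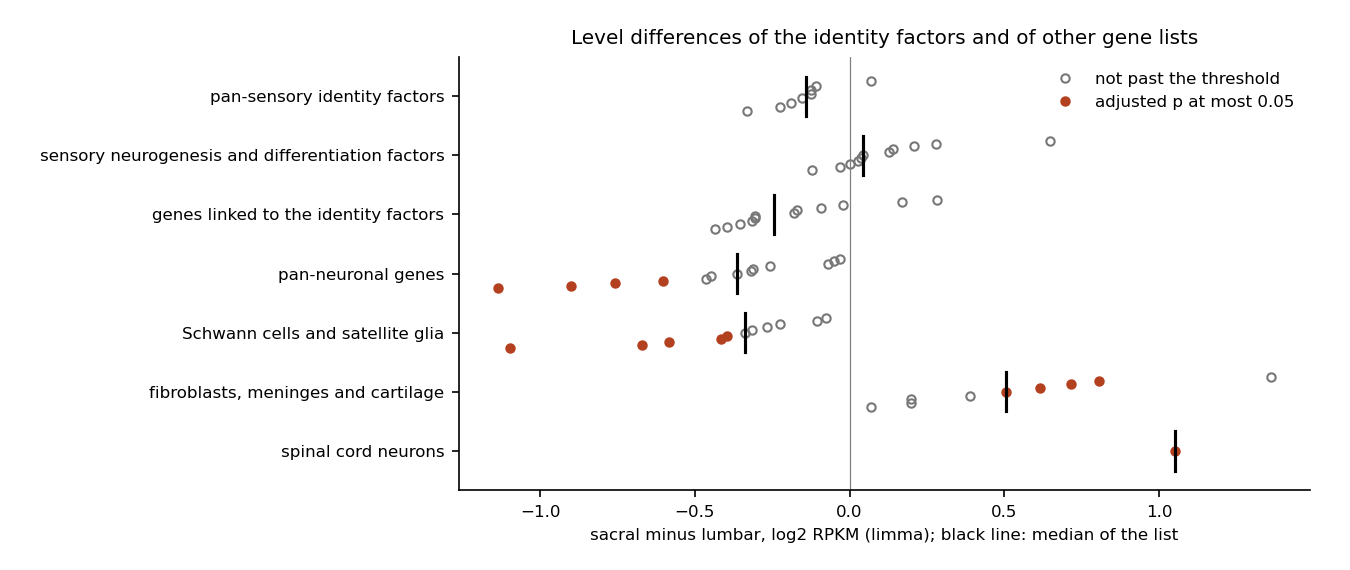
Sacral minus lumbar difference of each gene tested (log2 RPKM, horizontal axis) in the identity factors and 6 other lists, with filled red points for adjusted p of at most 0.05, open points for the rest and a black line at the median of each list. The identity factors hold no filled point and a median of -0.14, between the pan-neuronal genes at -0.36 and the neurogenesis factors at 0.044; centred on the pan-neuronal genes the median of the identity factors is 0.303.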

How the data were processed

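The authors sequenced amplified cDNA of total RNA, aligned the reads to mm9 with Subread, counted them per Ensembl gene with featureCounts, scaled the libraries by TMM in edgeR, applied voom, and deposited log2 RPKM values, on which all tests here were run. Blanks were read as 0 reads and set to the value of 0.5 reads. Steps of the values and GENCODE M1 lengths gave whole reads for 97.66% of values (within 0.05); the reads of Isl1, Pou4f1, Pou4f2 and Pou4f3 were whole only with lengths of 3958, 4020, 3205 and 2360 bases in place of 2526, 2828, 3212 and 1146.

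Genes with a mean log2 RPKM of at least 0 in at least 1 of 4 groups were tested with limma 3.58.1 (R 4.3.3): 4 group means over 20 libraries, donor as a random block (duplicateCorrelation, consensus 0.342), moderated variances with a trend, two-sided p-values adjusted by Benjamini-Hochberg over 14529 genes, threshold 0.05. The 2 libraries of a donor come from the same embryo by its code in the labels; the correlation of their deviations ran from -0.166 to 0.677. Tlx3, Neurod1 and the ratios were tested by an exact sign-flip permutation test over 10 donors. The script was tested on simulated data.

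The ratios of all 28 pairs of tested members were adjusted together. Alternatives were fits with no block or a fixed donor effect, other filters, pseudocounts of 1 and 0.1 RPKM, library weights, voom weights on recovered reads, centring on pan-neuronal genes, the mitochondrial rRNA share as covariate, GENCODE M1 lengths, and each donor left out; the lengths, the ratios and the fits without M5 and F7 were added after the data were seen. Named genes were all members, genes of the other lists past the threshold or among the 3 largest differences of their list, and the 2 genes most like each tested member; some results that this rule names are not reported here. The members and lists were chosen with earlier results of these data known. Intervals cover the spread between donors, whose libraries were amplified without molecular identifiers.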

Additional observations from a re-analysis of the deposited data

Results flagged for a closer look

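In 9 of the 40 sets of 5 libraries (10 genes by 4 groups), 1 library lay apart from the other 4 by more than 0.71 of the range of the group (Dixon's ratio). Chance flags about 1 in 20 groups, and the 40 sets are not independent because the genes share libraries. Of the 9, 8 came from donors M5 and F7, each time as the lowest library. In lumbar males M5 was at log2 2.43 for Isl2 (others 3.32 to 3.38), 2.59 for Pou4f3 (others 3.67 to 4.05) and 3.12 for Drgx (others 4.24 to 4.48). In sacral males M5 was at 3.74 for Isl1 (others 4.23 to 4.40) and 2.44 for Isl2 (others 3.10 to 3.33). In sacral females F7 was at 3.08 for Isl1 (others 3.86 to 4.0), 2.10 for Pou4f2 (others 3.32 to 3.63) and 4.64 for Prdm12 (others 5.97 to 6.25). The ninth was the sacral library of M7 for Tlx3, at log2 -0.27 (others -0.93 to -0.79), a gene with 35 reads in that library.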

How the results depend on the processing

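For the level, 0 of the 8 factors passed in the reported fit and 0 with no replicate block, with the replicate block as a fixed donor effect, with no filter or a stricter one, with either pseudocount, with voom, with the covariate and without any donor (0 to 0); 1 passed with library weights and 7 when centred on pan-neuronal genes. Centring turned Isl1 to 0.254, Isl2 to 0.216, Pou4f1 to 0.316, Pou4f3 to 0.111, Drgx to 0.318, Prdm12 to 0.334 and Klf7 to 0.289; Pou4f2 turned to -0.015 with library weights and -0.024 without female donor F8, the lowest of -0.024 to 0.156 when 1 donor was left out. Over all genes 978 passed for the level, against 154 with no replicate block, 509 with no filter, 261 without M5 and F7, 400 without F10, 487 without M5, 509 without F7, 562 without F3, 600 without M1, 1594 without F8, 2998 with library weights and 6827 when centred. Of 168 values of single factors, 157 kept direction and side of the threshold. The count of factors passing for sex and for the interaction was 0 in each fit run for them, which did not include the fixed donor effect. Leaving out 1 donor moved Tlx3 between -0.314 and -0.058 and Neurod1 between -0.282 and -0.059, and neither passed. Without M5 the ratio of Pou4f3 to Pou4f1 was -0.269 (unadjusted exact permutation p = 0.0352). With the GENCODE M1 lengths the mean log2 ratio of Pou4f3 to Pou4f2 in sacral DRG turned from -0.174 to 0.871. Centring gave 10 calls of 11 neurogenesis factors, 4 of 12 linked genes, 7 of 13 pan-neuronal genes, 0 of 11 glial genes and 9 of 9 fibroblast genes. In that setting 47.0% of all genes passed. With no replicate block, 1 pan-neuronal, 2 glial and 0 fibroblast genes passed, beside 1.06% of all genes. Without M5 and F7, 2 glial genes and 1 fibroblast gene passed, beside 1.8% of all genes. By construction, centring sets the median over the pan-neuronal genes, but not each gene, to the same value in all libraries. Other causes were not tested. Tlx3 and Neurod1 rest on 5 to 69 reads a library.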
